A study of Mus musculus with 12 samples.

Results

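Tumours taken late after the start of mifepristone (MFP), at 24 h and 48 h, were set against tumours taken early, at 6 h and 12 h, over 18193 genes. The late side has 4 arrays and the early side 4 arrays, 2 for each time, chosen by the source names in the sample labels from the 12 arrays of the series. All are Affymetrix mouse expression arrays of C4-HD, a progestin-dependent mammary carcinoma, in BALB/c mice. Every mouse had first received the progestin medroxyprogesterone acetate (MPA). When tumours measured 50 mm2, the MPA pellet was removed and MFP given at 10 mg/kg/day, so that loss of the progestin and arrival of its antagonist coincide in all 8 MFP arrays. The other 4 arrays are 2 of tumours with MPA and 2 of saline-treated tumours with the source name no MPA. They entered the estimate of spread, and the MPA arrays serve as the zero point. Whether MPA was gone from the no MPA tumours is ambiguous, since the protocol gives saline with MPA as its control. The 6 h group does not appear in the series text, which has tumours removed after 2 days, so the times rest on the sample labels. No age of the mice is given in the sources used here.

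MPA and MFP both bind the progesterone receptor, a hormone-activated transcription factor. The progestin lets it switch on genes that drive mammary cells into division, and MFP, which also blocks the glucocorticoid receptor, holds it in an inactive state. A cell leaving the cycle first lowers the E2F-driven genes of the G1/S transition and DNA replication, while genes of mitosis, many controlled through an element called CHR, peak later in G2 and M. In the mammary gland after lactation, withdrawal of hormones is followed by involution, in which secretory epithelium is removed and stroma is rebuilt.

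Each deposited value is a log2 ratio to the average of the 2 MPA arrays on the linear scale, so 0 is the MPA level, 1 is 2 times that level, and whether a gene lies above background cannot be read. A difference is late minus early on this log2 scale, with its standard error from limma after the ± sign (4 late and 4 early arrays, the spread shared over 12 arrays). Rose and fell are used of genes with a Benjamini-Hochberg adjusted p under 0.05 over all genes. Replicates are called independent in the series text, yet no label links an array to its own animal, and p-values then measure only how these samples spread, which may be technical. The number of arrays limits the precision. The mammary carcinoma label could be checked only as change. Of the epithelial and receptor markers Krt8 differed by -0.12 ± 0.18, Krt18 by -0.60 ± 0.22, Cdh1 by -0.15 ± 0.15, Cldn3 by -0.53 ± 0.19 and Cldn7 by -0.08 ± 0.23, none past the test, while Epcam and Esr1 fell, as described with the epithelial genes. Krt18 passed without MFP 48 h replicate 2 (-0.78) and Cldn3 without 12 h replicate 2 (-0.69), and Cldn7 changed sign without 6 h replicate 2 (0.08) or 48 h replicate 1 (0.13).

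RNA was isolated from fixed tissue in paraffin, and its 3' to 5' control difference, which grows as RNA breaks, averaged higher late. For Actb it averaged 0.48 ± 0.10 in late arrays and 0.26 ± 0.11 in early arrays relative to MPA (SD, n = 4 each, exact permutation test, two-sided p = 0.0571, where the smallest possible is 0.0286). For Gapdh it averaged 0.45 ± 0.08 in late arrays and 0.15 ± 0.16 in early arrays (exact permutation test, two-sided p = 0.0286, n = 4 each). Its part in the results below was not tested. Transcripts of liver, exocrine pancreas and skeletal muscle varied between arrays in ways that do not follow late and early alone, and are set apart at the end. The median of 76 liver genes was 3.29 and 3.80 in the 24 h arrays and lay between -0.84 and 0.81 in the other 6 MFP arrays.

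Late tumours differed widely from early ones. Of 18193 genes 2830 passed (15.6%), of which 1645 rose (9.04%) and 1185 fell (6.51%), with limma and Benjamini-Hochberg adjustment. Rises were larger, with 962 of at least 1 log2 unit and 163 of at least 2, against 392 and 27 among the falls. Of the rises 249 had values that follow the liver, pancreas or muscle median (correlation above 0.8), and none of the falls did. Only positive correlations were counted, and each of these medians averaged higher late, so the rule could hardly pick a fall. Genes running opposite to the medians were not counted. The median difference over all genes was -0.03. Between 48 h and 24 h 427 genes differed (2.35%), with 113 higher (0.621%) and 314 lower (1.73%) at 48 h. Late arrays lay wholly above early ones for 8.12% of all genes and wholly below for 8.86%. Relative to MPA, 7.09% of all genes were called higher and 7.23% lower late (14.3%), and 1.52% higher and 2.95% lower early (4.47%). Between 12 h and 6 h no gene passed limma's adjusted threshold, with 1348 at an unadjusted p under 0.05. Against early tumours, 1060 genes passed at 24 h (5.83%) and 2493 at 48 h (13.7%). Leaving out MFP 6 h replicate 2, 12 h replicate 1, 12 h replicate 2 or 24 h replicate 2 left 1771, 1772, 1734 and 1787 calls in turn, with 1066, 1047, 1040 and 1072 rises and 705, 725, 694 and 715 falls. Without 6 h replicate 1 there were 766 falls. With only the 2 means of late and early over the 8 MFP arrays, 1555 passed. With the liver, pancreas and muscle medians as covariates, and so fewer residual degrees of freedom, 380 passed, 302 higher and 78 lower. Quantile normalization, which gives all columns the same spread, left 122 rises and 165 falls, against 1645 and 1185. Centring the arrays on their medians gave 1802 rises and 961 falls.

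**Figure D1:**
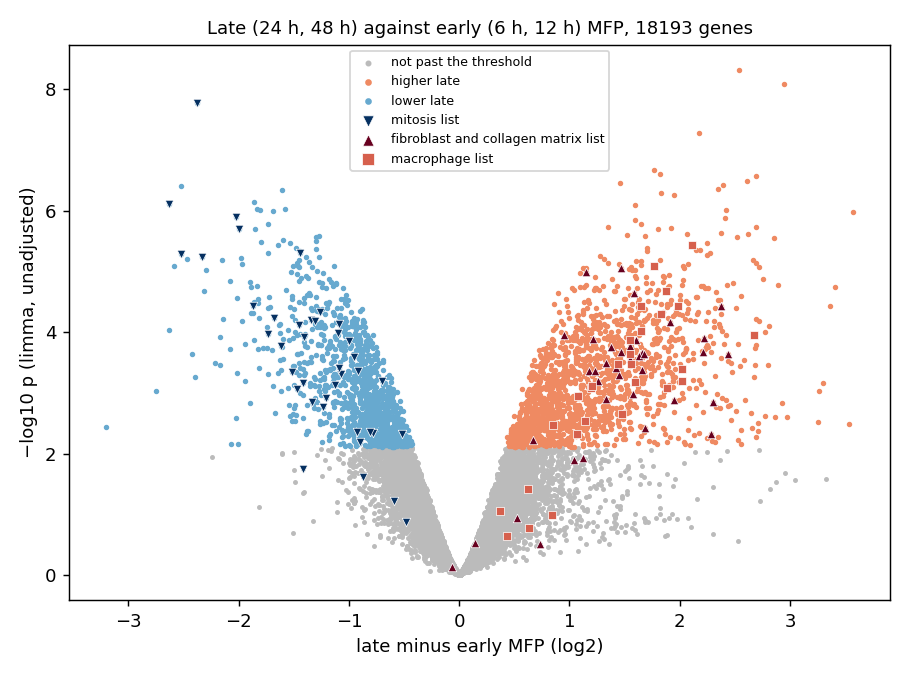
Difference between late and early MFP tumours (x axis, log2) against limma's unadjusted p (y axis, -log10) for 18193 genes, 1 point per gene. Of the mitosis list 36 of 40 genes fell (6.51% of all genes). Rises were 23 of 28 macrophage genes and 32 of 38 fibroblast and matrix genes (9.04% of all genes).

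Among the largest rises outside the organ lists with no overlap between late and early arrays, Aldh2, a mitochondrial aldehyde dehydrogenase, stood at 1.68 and 2.81 at 24 h, then 1.35 and 0.66 at 48 h, against -1.04 and -0.69 at 6 h, then -2.32 and -3.74 at 12 h. It differed by 3.57 ± 0.35, adjusted p = 0.0008, the call resting on 3 of its 5 probe sets. Vsig4, a complement receptor of tissue macrophages, stood at 2.39 and 2.01 at 24 h, then 2.16 and 2.11 at 48 h, against -0.94 and -0.58 at 6 h, then -0.80 and -0.79 at 12 h. The late arrays of Vsig4 lay close together and far above every early array, a difference of 2.95 ± 0.17, adjusted p = 7.51e-05. The chemokine genes Ccl6 (2.89 ± 0.38) and Cxcl14 (2.80 ± 0.53) and the myeloid lectin gene Clec4d (2.81 ± 0.45) followed. Epgn and Rnase4 rose by 2.72 ± 0.42 and 2.69 ± 0.23. Epgn encodes epigen, a ligand of the EGF receptor, and Rnase4 a secreted ribonuclease. Eps8, an actin regulator downstream of that receptor (2.78 ± 0.45), and Dab2, an endocytic adaptor (2.69 ± 0.32), rose as well. Igf1, which encodes a growth factor made by stroma and macrophages in the mammary gland and by liver, stood at 3.50 and 3.68 at 24 h, then 1.82 and 0.97 at 48 h, against 0.66 and -0.15 at 6 h, then -1.10 and -0.20 at 12 h. It rose by 2.69 ± 0.28, adjusted p = 0.00104, and the 48 h arrays were lower than the 24 h arrays by 2.19 (limma, past the adjusted threshold). Chil3, a chitinase-like protein gene of alternatively activated macrophages, rose by 2.92 ± 0.68, but its call was lost without MFP 6 h replicate 2 (2.89), 12 h replicate 1 (2.74) or 48 h replicate 1 (2.32).

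Among the largest falls with no overlap, Tfap2b, an AP-2 transcription factor gene, stood at -2.16 and -3.22 at 24 h, then -2.68 and -3.34 at 48 h, against 0.15 and 0.47 at 6 h, then -0.79 and -0.90 at 12 h, a fall of -2.58 ± 0.31, adjusted p = 0.00165. Nrxn3, a neuronal adhesion gene, fell by 2.63 on the log2 scale (adjusted p = 0.00381), with all 5 of its probe sets called. Hif3a, a hypoxia-inducible factor subunit, stood at -2.51 and -3.29 at 24 h, then -2.97 and -3.0 at 48 h, against -0.56 and 0.27 at 6 h, then -0.82 and -0.60 at 12 h. It differed by -2.52 ± 0.22, adjusted p = 0.000646, and 5 of its 6 probe sets fell. Mip, an aquaporin gene known from the lens, differed by -2.47 ± 0.29, and Dnaic1, a ciliary dynein chain gene, by -2.40 ± 0.49. Fer1l6 and Cdcp3 had larger estimates, -3.20 ± 0.85 and -2.75 ± 0.60, but wide spread. The Cdcp3 call was lost without MFP 12 h replicate 2 (-2.56). That of Fer1l6 was lost without any of the 4 early arrays, MFP 24 h replicate 2 or 48 h replicate 1, where it stood between -3.41 and -2.75.

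**Figure D2:**
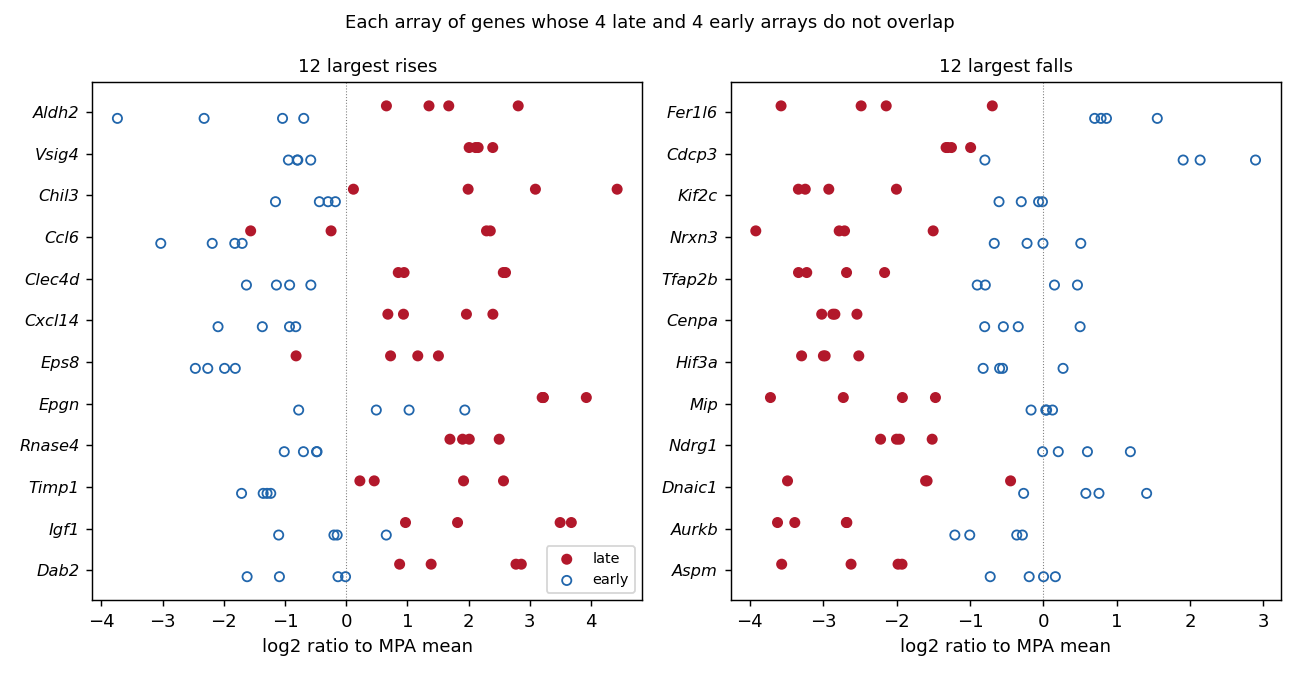
The 12 largest rises (left) and 12 largest falls (right) among called genes with no overlap, outside the organ lists; x axis, log2 ratio to the MPA mean, filled points 4 late arrays, open points 4 early arrays. Vsig4 and Cenpa show tight late arrays, while the late arrays of Chil3 run between 0.12 and 4.43.

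Genes of mitosis were lower late. Of 40 measured members 36 fell and none rose, where 6.51% of all genes fell, and the list median differed by -1.28. The list median stood at -2.09 and -1.50 at 24 h, then -1.10 and -1.33 at 48 h, against 0.17 and -0.13 at 6 h, then -0.42 and -0.64 at 12 h. The arrays of late and early tumours did not overlap on it, and 24 h was lower than 48 h. Against the MPA arrays, which late and early share, the median was -1.47 late and -0.23 early, with 35 falls late (7.23% of all genes fell) and 0 early (2.95% of all genes fell; limma, with 6 members at an unadjusted p under 0.05). Cenpa, the histone H3 variant that marks centromeres, stood at -2.54 and -3.02 at 24 h, then -2.87 and -2.84 at 48 h, against 0.50 and -0.34 at 6 h, then -0.54 and -0.80 at 12 h. It differed by -2.52 ± 0.29, adjusted p = 0.00152. Its late and early arrays did not overlap, which was a condition for the largest falls, to which it belongs. Aurkb, the kinase that corrects chromosome attachment, stood at -3.62 and -3.39 at 24 h, then -2.68 and -2.68 at 48 h, against -0.28 and -0.36 at 6 h, then -1.21 and -1.0 at 12 h, a difference of -2.38 ± 0.15, adjusted p = 0.000103. Kif2c, a kinesin that takes microtubules apart at centromeres, differed by -2.63 ± 0.25, the spindle pole gene Aspm by -2.34 ± 0.27, the kinetochore gene Cenpf by -2.03 ± 0.20 and the spindle motor gene Kif11 by -1.99 ± 0.21. Mki67, the common proliferation marker, stood at -2.83 and -1.53 at 24 h, then -1.40 and -2.10 at 48 h, against 0.27 and -0.14 at 6 h, then -0.51 and -1.02 at 12 h, a difference of -1.62 ± 0.28, adjusted p = 0.00498. The 4 members that did not pass were Kif23 (-1.42), Birc5 (-0.88), Nek2 (-0.59) and Mad2l1 (-0.48). Kif23 passed without MFP 48 h replicate 1 (-2.13) and Birc5 without 24 h replicate 2 (-1.34). Leaving out 1 array left 27 to 35 falls, and 32 fell at 24 h alone (2.21% of all genes) and 20 at 48 h alone (5.82%). With only late and early means 22 fell, where 705 of all 18193 genes did. With the organ medians as covariates 10 fell, where 78 of all genes did (limma, 32 members lower at an unadjusted p under 0.05). After quantile normalization 10 fell, where 165 of all genes did (limma, 36 members lower at an unadjusted p under 0.05). In bulk tissue, fewer cells of a type and less RNA per cell cannot be told apart, here and for all lists below.

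DNA replication and G1/S genes were low relative to MPA at both late and early times. Of 33 members 3 rose late (9.04% of all genes) and 1 fell (6.51%), and the list median difference was -0.11. Relative to MPA the median was -0.96 late and already -0.95 early. Late, 22 members passed the test and were lower (7.23% of all genes), and early 15 (2.95%). Mcm2, part of the replicative helicase, stood at -1.15 and -1.31 at 24 h, then -0.50 and -0.31 at 48 h, against -1.32 and -1.19 at 6 h, then -1.90 and -1.79 at 12 h. It differed by 0.74 ± 0.14, adjusted p = 0.00745, with its 12 h arrays the lowest, and was below MPA late (-0.81 ± 0.17, adjusted p = 0.0147) and early (-1.54 ± 0.17, adjusted p = 0.00452). The replication licensing factor Cdt1 differed by 1.0 ± 0.24 and the thymidine kinase Tk1 by 0.78 ± 0.20, both called higher. The primase gene Prim1 differed by -0.80 ± 0.19, the only called fall. Calls were lost for Cdt1 without MFP 6 h replicate 2, 12 h replicate 1, 24 h replicate 2 or 48 h replicate 1 (0.83 to 0.90), for Tk1 without any array but 24 h replicate 1 or 48 h replicate 1 (0.70 to 0.85) and for Prim1 without 6 h replicate 1, 12 h replicate 1 or 48 h replicate 2 (-0.72 to -0.67). The rises were 1 without MFP 6 h replicate 2, 12 h replicate 1 or 24 h replicate 2, and the falls were 3 without 24 h replicate 2 and 2 without 48 h replicate 1. No member passed after quantile normalization or with the organ covariates (limma, 4 and 5 at an unadjusted p under 0.05). The Mcm2 call was lost with only late and early means.

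**Figure D3:**
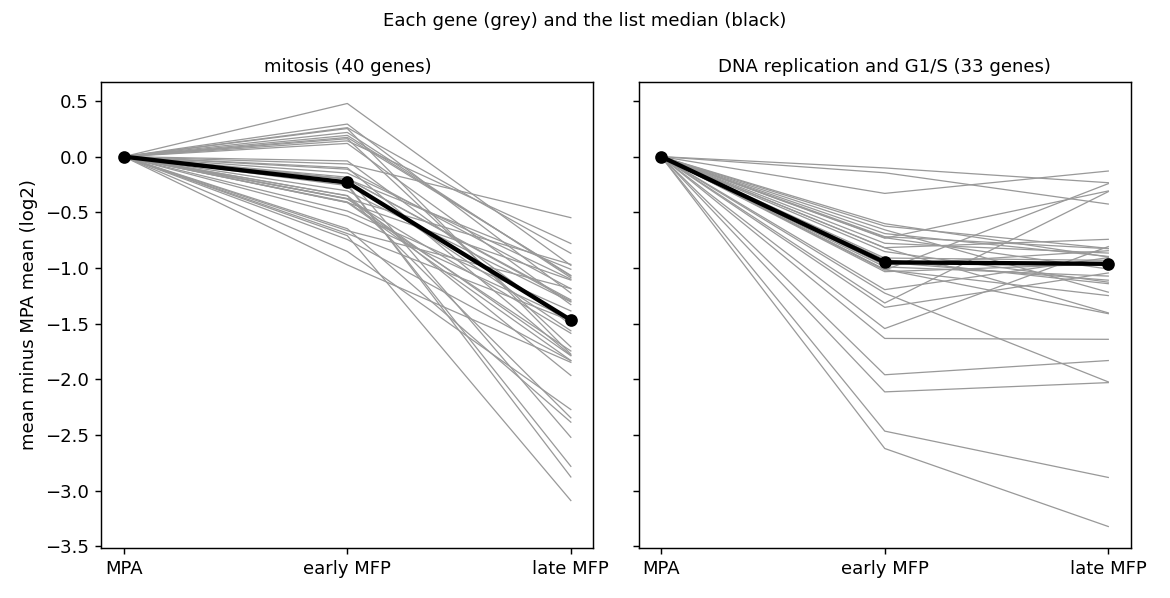
Mean of the MPA, early MFP and late MFP arrays (x axis) minus the MPA mean (y axis, log2) for each gene of the mitosis list (left, 40 genes) and the DNA replication and G1/S list (right, 33 genes), the list median in black. Mitosis medians are -1.47 late and -0.23 early, and replication medians are -0.96 late and -0.95 early.

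Promoters of both lists are shown because their members differ between late and early times in different ways. The windows span each gene's start in RefSeq (GRCm38.p6) and were searched on both strands, where 14452 of the 18193 genes have one. The CHR letters TTTGAA lie in 25 of 33 mitosis promoters (75.8%), 5 of 29 replication promoters (17.2%) and 15.7% of promoters of all genes tested. CCAAT lies in 75.8% of mitosis promoters, 58.6% of replication promoters and 42% of all. The E2F letters TTTGGCG or TTTCGCG lie in 12 of 29 replication promoters (41.4%), 1 of 33 mitosis promoters (3.03%) and 3.9% of all. Among all genes that fell, TTTGAA lies in 17.8% of promoters, CCAAT in 46.9% and the E2F letters in 4.61%. For all genes that rose these shares are 15.6%, 40.9% and 3.4%, so the contrast is between the lists. The Cenpa promoter (chr5:30666636-30666935, plus strand) and the Cenpf promoter (chr1:189688037-189688336, minus strand) carry TTTGAA and CCAAT or their reverse complements in capitals, and the Cdt1 promoter (chr8:122567765-122568064, plus strand) carries TTTGGCG and TTTCGCG or their reverse complements in capitals. They were chosen after their values were seen, and a match is not a bound site.
Cenpa: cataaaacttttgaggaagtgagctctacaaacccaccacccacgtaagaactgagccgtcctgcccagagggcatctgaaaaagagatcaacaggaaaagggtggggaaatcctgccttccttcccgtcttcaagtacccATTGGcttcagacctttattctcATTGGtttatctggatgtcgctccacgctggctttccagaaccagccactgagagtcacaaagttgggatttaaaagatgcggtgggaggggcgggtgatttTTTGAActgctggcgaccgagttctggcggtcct
Cenpf: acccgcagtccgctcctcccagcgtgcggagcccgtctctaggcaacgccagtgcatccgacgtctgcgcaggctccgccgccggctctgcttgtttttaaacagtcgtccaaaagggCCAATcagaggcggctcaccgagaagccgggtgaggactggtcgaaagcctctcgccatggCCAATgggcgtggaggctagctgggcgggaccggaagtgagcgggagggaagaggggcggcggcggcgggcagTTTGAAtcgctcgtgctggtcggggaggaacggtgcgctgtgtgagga
Cdt1: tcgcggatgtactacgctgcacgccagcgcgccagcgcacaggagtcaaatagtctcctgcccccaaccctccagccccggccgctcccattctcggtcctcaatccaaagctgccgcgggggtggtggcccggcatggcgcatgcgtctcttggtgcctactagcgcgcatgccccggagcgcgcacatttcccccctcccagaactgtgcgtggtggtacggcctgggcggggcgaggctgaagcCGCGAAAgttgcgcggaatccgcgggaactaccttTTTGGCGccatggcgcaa

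Ribosome biogenesis genes, below MPA at both times, were higher late than early. Of 35 ribosome biogenesis genes 12 rose (9.04% of all genes) and none fell, with a list median of 0.41. The list median stood at -0.72 and -0.79 at 24 h, then -0.74 and -0.62 at 48 h, against -1.18 and -1.45 at 6 h, then -1.10 and -1.19 at 12 h. No late array reached 0 and no early array reached the lowest late one. With the organ covariates 0 passed (limma, 8 higher at an unadjusted p under 0.05), and 8 rose after quantile normalization. Gnl3, the nucleolar GTPase nucleostemin, rose by 0.85 ± 0.14, and stood at -0.70 against MPA late and -1.55 early. Bysl, needed for the small ribosomal subunit, stood at -0.45 and -0.01 at 24 h, then -0.03 and 0.44 at 48 h, against -1.04 and -1.37 at 6 h, then -0.99 and -0.59 at 12 h, a rise of 0.99 ± 0.18, adjusted p = 0.00547. Mybbp1a, a nucleolar regulator (0.83 ± 0.16), and Gar1, of the pseudouridine-forming particles (0.70 ± 0.13), rose too. Of 24 nucleotide and one-carbon genes 3 rose and 1 fell, against 9.04% and 6.51% of all genes. Ctps, which makes CTP, rose by 0.86 ± 0.12, and the mitochondrial serine enzyme gene Shmt2 fell by 0.85 on the log2 scale (adjusted p = 0.00455). The count of rises in that list was 1 without MFP 12 h replicate 1, 24 h replicate 2 or 48 h replicate 2, and 2 fell without 48 h replicate 2. Ccnd1, the cyclin that carries mitogen signals into G1, stood at -1.07 and -1.22 at 24 h, then -0.67 and -0.40 at 48 h, against -1.95 and -1.76 at 6 h, then -1.50 and -1.45 at 12 h. It rose by 0.82 ± 0.17, adjusted p = 0.00921 and was below MPA late (-0.84 ± 0.20, adjusted p = 0.0235) and early (-1.66 ± 0.20, adjusted p = 0.00512). Myc differed by 0.25 ± 0.20, adjusted p = 0.468, with values against MPA of -1.47 late and -1.72 early.

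Among cell cycle inhibitors and quiescence genes more members fell than rose. Of 20 members 7 fell (6.51% of all genes) and 1 rose, and the median difference was -0.50. Btg2, an antiproliferative adaptor of mRNA decay, stood at 0.22 and -0.04 at 24 h, then -0.64 and -0.35 at 48 h, against 1.11 and 1.66 at 6 h, then 1.14 and 1.28 at 12 h. It fell by 1.5 on the log2 scale (adjusted p = 0.00302), and its early arrays lay above MPA (1.35 ± 0.27, adjusted p = 0.0229). Klf9, a steroid-induced Kruppel-like factor (-1.83 ± 0.26), Tob1 (-1.13 ± 0.20) and Btg1 (-0.88 ± 0.17) also fell. Cdkn1a, the p21 inhibitor, differed by 0.08 ± 0.16, adjusted p = 0.784. No member passed after quantile normalization or with the organ covariates (limma, 9 and 4 lower at an unadjusted p under 0.05), and the 1 rise was lost without MFP 6 h replicate 1, 12 h replicate 1, 24 h replicate 2 or 48 h replicate 1.

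**Figure D4:**
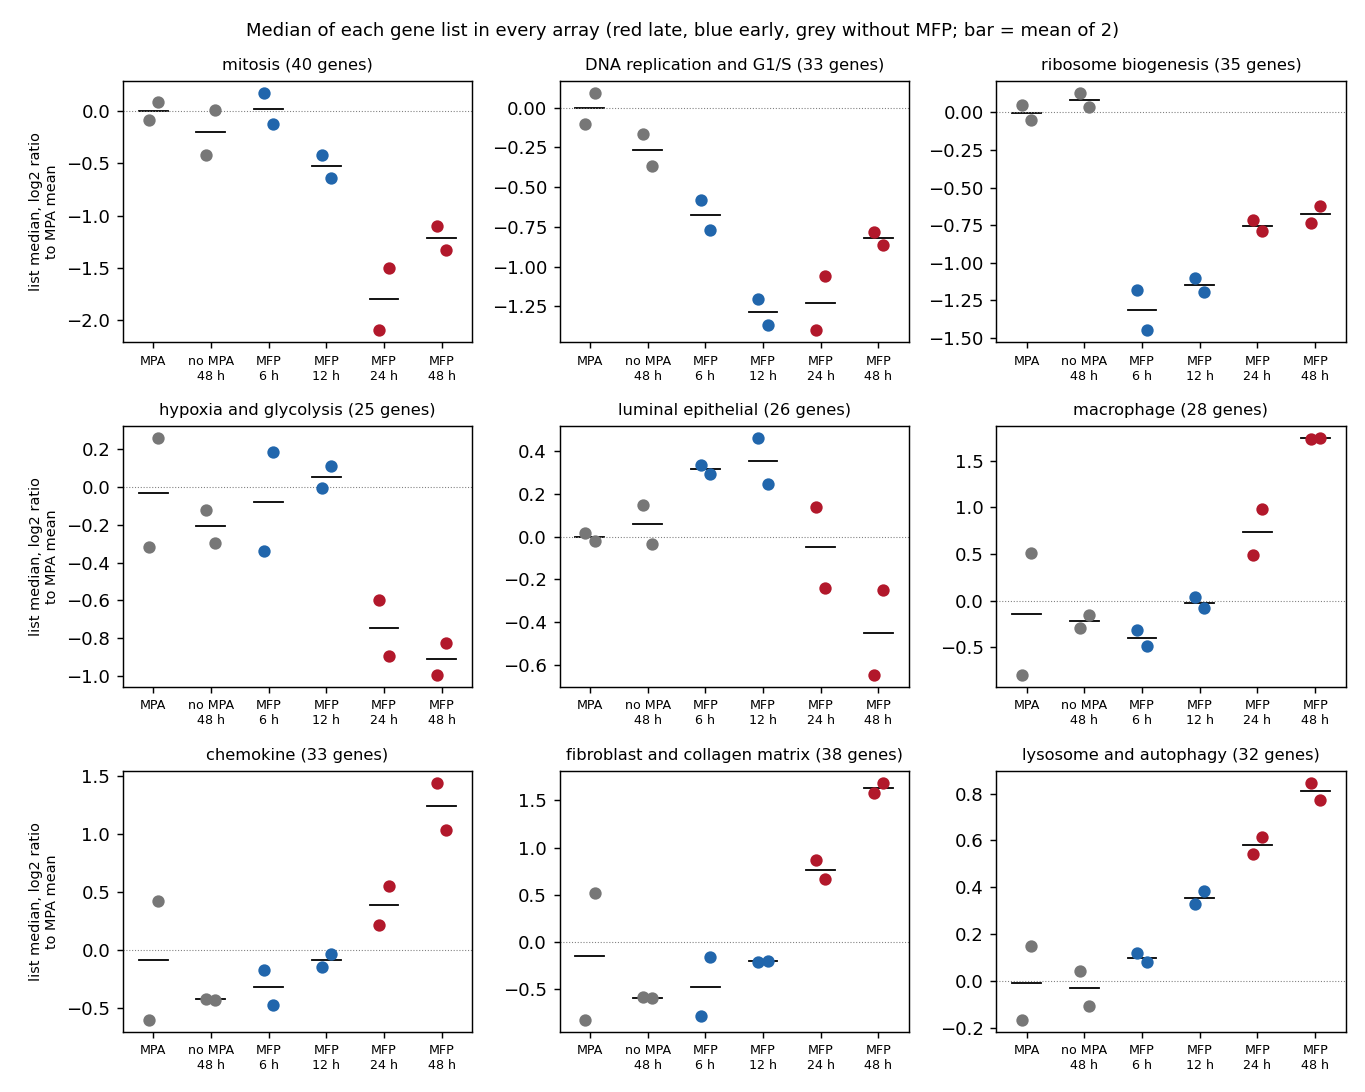
Median of 9 gene lists in each array (y axis, log2 ratio to the MPA mean) by group (x axis), 2 arrays per group, bar at their mean. The mitosis median is lowest at 24 h, the replication median is lowest at 12 h and 24 h, and macrophage, chemokine and matrix medians are highest at 48 h.

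Macrophage genes were higher late. Of 28 markers 23 rose (9.04% of all genes) and none fell, with a list median of 1.55. The median stood at 0.49 and 0.99 at 24 h, then 1.74 and 1.74 at 48 h, against -0.31 and -0.48 at 6 h, then 0.04 and -0.08 at 12 h. The 48 h arrays were highest, and 22 members passed at 48 h (7.88% of all genes rose) against 5 at 24 h (3.62%). Cd68, a lysosomal protein of phagocytes, stood at 0.92 and 1.57 at 24 h, then 2.57 and 2.71 at 48 h, against -0.78 and -0.35 at 6 h, then 0.28 and 0.17 at 12 h, a rise of 2.11 ± 0.24, adjusted p = 0.00132. Adgre1, a surface receptor that marks mouse macrophages, stood at 1.55 and 1.50 at 24 h, then 2.46 and 2.26 at 48 h, against 0.24 and -0.73 at 6 h, then 0.16 and 0.18 at 12 h, a rise of 1.98 ± 0.29, adjusted p = 0.00291. No early array reached a late one for either gene. Itgam, the CD11b integrin, rose by 1.76 ± 0.21, and the Fc receptor chain gene Fcer1g by 1.87 ± 0.25. Without any 1 array 18 to 25 passed, with the organ medians as covariates 11, and after quantile normalization 0 (limma, 16 higher at an unadjusted p under 0.05). The MPA arrays themselves differed on this list, at -0.80 and 0.51.

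Chemokine and complement genes were also higher late. Of 33 chemokine genes 15 rose and none fell (median 1.0), and of 11 complement genes 9 rose and none fell (median 1.39), where 9.04% of all genes rose. With the organ covariates 6 chemokine and 2 complement genes rose. After quantile normalization 3 chemokine and 0 complement genes did (limma, 4 complement genes higher at an unadjusted p under 0.05). Ccl2, which draws monocytes, stood at 1.69 and 2.25 at 24 h, then 3.23 and 3.11 at 48 h, against -0.02 and -0.59 at 6 h, then 1.13 and 0.50 at 12 h, a rise of 2.32 ± 0.34, adjusted p = 0.00299. Ccl9 stood at -0.08 and 0.53 at 24 h, then 2.16 and 2.27 at 48 h, against -1.05 and -1.30 at 6 h, then -0.97 and -1.46 at 12 h, a rise of 2.41 ± 0.24, adjusted p = 0.000928. For both, every late array lay above every early one, and Ccl3, made by activated macrophages, rose by 2.04 ± 0.25. Cxcl12, the stromal ligand of CXCR4, rose by 2.12 ± 0.43. Clu, a chaperone and complement inhibitor known from the involuting gland, stood at 1.87 and 2.25 at 24 h, then 2.26 and 2.46 at 48 h, against -0.61 and -0.30 at 6 h, then 0.98 and 1.01 at 12 h. It rose by 1.94 ± 0.29, adjusted p = 0.00329 on all 4 of its probe sets. Cfb, Cfp and Serping1, a protease, a stabiliser and an inhibitor of the complement cascade, rose by 1.06 ± 0.18, 1.59 ± 0.31 and 1.32 ± 0.27.

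Lists of other leukocytes had fewer calls. Of 16 neutrophil genes 5 rose (9.04% of all genes; median 1.10), among them the collagenase gene Mmp8 (1.95 ± 0.18), the gelatinase gene Mmp9 (1.69 ± 0.34) and the formyl peptide receptor gene Fpr2 (1.81 ± 0.33), and 3 rose without MFP 24 h replicate 2, 2 with the organ covariates and 1 after quantile normalization. The neutrophil median reached 2.48 in MFP 48 h replicate 1, where no other late array exceeded 0.91. Of 23 T and NK cell genes 2 rose, one being Il7r, the interleukin-7 receptor (1.34 ± 0.20), with 1 left without MFP 6 h replicate 2, 12 h replicate 2, 24 h replicate 2 or 48 h replicate 1. None of 16 B and plasma cell genes passed in limma, with 3 at an unadjusted p under 0.05, the smallest that of Sdc1 (0.55 ± 0.17, adjusted p = 0.0582), but 7 rose without MFP 24 h replicate 1 and 2 without 48 h replicate 2. Of 16 MHC class II and dendritic cell genes 3 rose, and none passed without MFP 6 h replicate 2 or 12 h replicate 2 and 1 without 24 h replicate 2 or 48 h replicate 1. Of 31 interferon-stimulated genes 2 rose and 3 fell (median 0.11), near the share of all genes. Ddx58, the RNA sensor RIG-I, fell by 0.63 on the log2 scale (adjusted p = 0.0118). The rises became 0 without MFP 6 h replicate 2, 12 h replicate 1, 12 h replicate 2, 24 h replicate 2 or 48 h replicate 1, and the falls 1 without 12 h replicate 2 or 24 h replicate 2. After quantile normalization or with the organ covariates no T and NK, class II or interferon gene rose (limma, at most 5 of a list higher at an unadjusted p under 0.05).

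Fibroblast and collagen genes were higher late. Of 38 members 32 rose (9.04% of all genes) and none fell, with a list median of 1.46. The median stood at 0.87 and 0.67 at 24 h, then 1.58 and 1.69 at 48 h, against -0.78 and -0.16 at 6 h, then -0.21 and -0.20 at 12 h. Late and early arrays did not overlap, and 33 members passed at 48 h (7.88% of all genes rose) and 5 at 24 h (3.62%). Postn, a matrix protein of activated fibroblasts, stood at 1.85 and 2.06 at 24 h, then 2.13 and 2.63 at 48 h, against 0.31 and 0.82 at 6 h, then 0.78 and 0.91 at 12 h, a rise of 1.46 ± 0.18, adjusted p = 0.00165. Col1a1, of type I collagen, stood at 0.97 and 0.68 at 24 h, then 1.42 and 1.81 at 48 h, against -0.30 and -0.02 at 6 h, then -0.22 and -0.37 at 12 h, a rise of 1.45 ± 0.29, adjusted p = 0.00854. Every late array exceeded every early one for both genes. Vcan, a large proteoglycan, rose by 2.38 ± 0.34 on 4 of its 8 probe sets, Pdgfrb, the PDGF receptor of mesenchymal cells, by 1.58 ± 0.22, and Col6a2 by 1.15 ± 0.14. Vim, the mesenchymal filament gene, rose by 1.67 ± 0.32. Without any 1 array 26 to 30 passed, with the organ medians as covariates 25, and after quantile normalization 1, with 25 higher at an unadjusted p under 0.05. The MPA arrays stood at -0.82 and 0.52 on this list.

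Matrix proteases and their inhibitors both held genes that rose. Of 21 genes 11 rose and 1 fell, against 9.04% and 6.51% of all genes. Timp1, a metalloproteinase inhibitor induced by injury, stood at 0.22 and 0.46 at 24 h, then 1.92 and 2.57 at 48 h, against -1.71 and -1.29 at 6 h, then -1.36 and -1.23 at 12 h. It rose by 2.69 ± 0.41, adjusted p = 0.00345, and both 48 h arrays lay above both 24 h arrays. Timp3, a matrix-bound inhibitor, rose by 1.78 ± 0.28 on all 4 of its probe sets. Adam8, a membrane protease of myeloid and tumour cells, stood at 1.88 and 2.17 at 24 h, then 3.01 and 3.40 at 48 h, against -0.43 and -1.03 at 6 h, then 0.98 and 0.47 at 12 h, a rise of 2.62 ± 0.28, adjusted p = 0.00116. Mmp11, stromelysin-3, fell by 0.80 on the log2 scale (adjusted p = 0.00785). The 11 rises were 6 without MFP 6 h replicate 1 or 12 h replicate 2, 7 without 6 h replicate 2, 24 h replicate 1 or 48 h replicate 2, and 5 without 12 h replicate 1. With the organ covariates 7 rose and the fall was lost, and after quantile normalization 0 rose (limma, 6 higher at an unadjusted p under 0.05).

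Of 27 endothelial genes 9 rose and 1 fell (median 0.59), against 9.04% and 6.51% of all genes. Cdh5, the VE-cadherin of endothelial junctions, stood at 0.46 and 0.44 at 24 h, then 1.22 and 1.26 at 48 h, against -0.73 and 0.04 at 6 h, then -0.53 and -0.37 at 12 h, a rise of 1.24 ± 0.20, adjusted p = 0.0036. Aplnr, the apelin receptor (1.52 ± 0.16), and Flt4, the VEGF-C receptor of lymphatic vessels (1.66 ± 0.31), rose. Vwf, the von Willebrand factor gene, stood at -0.58 and -1.31 at 24 h, then -1.76 and -1.66 at 48 h, against 0.47 and 0.33 at 6 h, then -0.07 and -0.06 at 12 h, a fall of -1.49 ± 0.23, adjusted p = 0.00349. All late arrays of Vwf lay below all early ones. The 9 rises were 4 without MFP 12 h replicate 1 and 5 without 6 h replicate 2, 12 h replicate 2, 24 h replicate 2 or 48 h replicate 2, 3 with the organ covariates and 1 after quantile normalization, and both settings ended the fall. Of 16 pericyte and smooth muscle genes 5 rose, such as Actg2, a smooth muscle actin (1.06 ± 0.20), and Mylk, the myosin light chain kinase (1.18 ± 0.23), and 1 fell. Those rises were 2 without MFP 6 h replicate 1, 12 h replicate 1 or 12 h replicate 2 and 3 without 24 h replicate 2 or with the organ covariates, and 0 after quantile normalization (limma, 3 higher at an unadjusted p under 0.05). The fall was lost whichever of the 8 arrays was left out.

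Of 26 luminal epithelial genes 9 fell (6.51% of all genes) and none rose, with a median of -0.54. Gata3, which maintains luminal identity, stood at -0.91 and -1.76 at 24 h, then -3.02 and -1.37 at 48 h, against 0.61 and 0.63 at 6 h, then 0.33 and -0.07 at 12 h, a fall of -2.14 ± 0.33, adjusted p = 0.00348. Foxa1, the pioneer factor of hormone receptor binding, stood at -0.96 and -1.76 at 24 h, then -2.26 and -1.40 at 48 h, against -0.04 and -0.05 at 6 h, then -0.11 and -0.21 at 12 h, a fall of -1.49 ± 0.24, adjusted p = 0.004. Esr1, the estrogen receptor gene, stood at -1.35 and -1.76 at 24 h, then -1.71 and -1.78 at 48 h, against -0.05 and 0.19 at 6 h, then -0.29 and -0.31 at 12 h. It fell by 1.53 on the log2 scale (adjusted p = 0.00127) on all 3 of its probe sets, and stood at -1.63 against MPA late and -0.09 early. Late and early arrays did not overlap for any of these 3 genes. Epcam, the epithelial adhesion gene, fell by 0.99 on the log2 scale (adjusted p = 0.00313), as did the epithelial factor genes Grhl2 (-1.46) and Ehf (-1.21). Krt8 differed by -0.12 ± 0.18, adjusted p = 0.722. Without any 1 array 7 to 12 fell, with the organ medians as covariates 1, and after quantile normalization 3. Of 17 basal and myoepithelial genes 2 rose, and of 22 milk and secretory genes 4 rose (9.04% of all genes). Xdh, which coats milk fat globules, rose by 1.97 ± 0.32, and the lipid droplet gene Plin2 by 1.65 ± 0.20. The milk list had 2 rises without MFP 6 h replicate 1, 6 h replicate 2, 12 h replicate 2, 24 h replicate 2 or 48 h replicate 1, and 7 without 24 h replicate 1. With the organ covariates 1 gene rose in each of these lists, and after quantile normalization 0 (limma, 1 basal and 3 milk genes higher at an unadjusted p under 0.05).

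Growth factor genes moved both ways. Of 54 members 18 rose and 7 fell (9.04% and 6.51% of all genes). Among the ligands, Ereg, epiregulin, stood at 1.39 and 0.92 at 24 h, then 1.88 and 3.27 at 48 h, against -0.07 and -0.67 at 6 h, then -0.22 and 0.20 at 12 h, a rise of 2.06 ± 0.29, adjusted p = 0.00272. Csf1, the macrophage growth factor, stood at 0.94 and 1.29 at 24 h, then 2.11 and 2.61 at 48 h, against -0.19 and -0.55 at 6 h, then 0.10 and 0.20 at 12 h. It rose by 1.85 ± 0.24, adjusted p = 0.00214, on all 4 of its probe sets, and Fgf2 rose by 1.37 ± 0.27. Egfr, the receptor of epiregulin and epigen, stood at 1.64 and 1.95 at 24 h, then 1.06 and 1.13 at 48 h, against -0.06 and -0.48 at 6 h, then -0.22 and -0.65 at 12 h, a rise of 1.80 ± 0.28, adjusted p = 0.00349 on 3 of its 7 probe sets. Its relatives Erbb3 and Erbb2 fell. Erbb3, which pairs with ERBB2 to bind neuregulins, stood at 0.12 and -0.65 at 24 h, then -0.63 and -0.56 at 48 h, against 0.92 and 1.07 at 6 h, then 0.95 and 0.52 at 12 h, a fall of -1.29 ± 0.20, adjusted p = 0.00364, and Erbb2 fell by 0.82 on the log2 scale (adjusted p = 0.0107). Fgfr2, the epithelial FGF receptor, fell by 1.20 on the log2 scale (adjusted p = 0.00562), and the ligand gene Kitl fell by 1.3 (adjusted p = 0.00302). Without MFP 12 h replicate 1 the falls were 4. Rises and falls were 3 and 2 after quantile normalization, and 8 and 0 with the organ covariates (limma, 3 lower at an unadjusted p under 0.05).

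Of 25 hypoxia and glycolysis genes 13 fell (6.51% of all genes) and 1, the lactate exporter gene Slc16a3, rose (1.23 ± 0.35), a call lost without any single array except MFP 12 h replicate 2 (0.95 to 1.3). The list median differed by -0.73 and stood at -0.60 and -0.90 at 24 h, then -0.99 and -0.83 at 48 h, against -0.34 and 0.18 at 6 h, then -0.01 and 0.11 at 12 h. Ndrg1, a stress gene strongly induced by low oxygen, stood at -1.51 and -2.0 at 24 h, then -1.96 and -2.22 at 48 h, against -0.01 and 1.19 at 6 h, then 0.60 and 0.20 at 12 h, a fall of -2.42 ± 0.44, adjusted p = 0.0057. Pdk1, which diverts pyruvate from mitochondria, stood at -0.60 and -1.09 at 24 h, then -1.93 and -2.07 at 48 h, against 0.15 and 0.62 at 6 h, then 0.33 and 0.39 at 12 h, a fall of -1.79 ± 0.20, adjusted p = 0.00127 on all 4 of its probe sets. Late arrays lay below early arrays for both, where 8.86% of all genes did so. For Ndrg1 this was a condition for the largest falls, to which it belongs. The peptide hormone gene Adm (-2.22), the histone demethylase gene Kdm3a (-1.29 ± 0.16), and the carbonic anhydrase gene Car9 (-1.31) fell. Without any 1 array 9 to 12 fell. With the organ medians as covariates 0 passed, and Ndrg1 stood at -0.33. In that setting 5 members were higher and 2 lower at an unadjusted p under 0.05 (limma), against 1 and 16 without the covariates. After quantile normalization 2 fell. Pgk1, phosphoglycerate kinase, fell by 0.91 on the log2 scale (adjusted p = 0.005). The letters ACGTG, the core bound by hypoxia-inducible factors, lie on either strand in 18 of 24 hypoxia promoters (75%) and 26.1% of promoters of all genes tested. They lie in 30.9% of promoters of all genes that fell and 25.5% of those that rose. The Pgk1 promoter (chrX:106186850-106187149, plus strand, RefSeq, GRCm38.p6) is shown with ACGTG and its reverse complement in capitals, chosen after the values were seen.
Pgk1: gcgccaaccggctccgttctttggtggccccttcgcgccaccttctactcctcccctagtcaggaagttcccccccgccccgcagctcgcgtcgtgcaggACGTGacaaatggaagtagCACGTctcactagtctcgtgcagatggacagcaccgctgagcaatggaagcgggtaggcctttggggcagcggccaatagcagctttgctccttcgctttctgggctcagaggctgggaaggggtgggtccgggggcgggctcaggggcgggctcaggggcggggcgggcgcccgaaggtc

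Of 32 lysosome and autophagy genes 12 rose and 4 fell (median 0.58), against 9.04% and 6.51% of all genes. Ctsb, a lysosomal protease, stood at 1.41 and 1.78 at 24 h, then 2.37 and 2.36 at 48 h, against 0.16 and -0.03 at 6 h, then 0.83 and 0.81 at 12 h, a rise of 1.54 ± 0.24, adjusted p = 0.00359. Lipa, the lysosomal acid lipase, stood at 1.43 and 1.94 at 24 h, then 2.53 and 2.45 at 48 h, against 0.48 and 0.60 at 6 h, then 0.37 and 0.46 at 12 h, a rise of 1.61 ± 0.21, adjusted p = 0.00217. The early arrays of both lay below the late ones. Npc1, the cholesterol transporter of lysosomes, rose by 0.89 ± 0.12, and Gla, a galactosidase, by 1.15 ± 0.19 on 1 of its 3 probe sets. Gabarapl1, an autophagosome gene, fell by 1.04 on the log2 scale (adjusted p = 0.00428). The falls were 1 without MFP 6 h replicate 2 or 12 h replicate 2 and 2 without 48 h replicate 2. Rises and falls were 1 and 1 after quantile normalization, and 2 and 0 with the organ covariates (limma, 2 lower at an unadjusted p under 0.05). Of 25 mammary involution genes 9 rose and 1 fell (median 0.95), among them Lbp, an acute phase lipopolysaccharide binder (1.71 ± 0.24). With the organ covariates 6 rose, and after quantile normalization 0 (limma, 8 higher at an unadjusted p under 0.05). The involution fall was lost without MFP 6 h replicate 1, 12 h replicate 2, 24 h replicate 2 or 48 h replicate 1 and in both of those settings.

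Of 27 BCL2 family and death genes 4 rose and 2 fell (median 0.16), where 9.04% of all genes rose and 6.51% fell. Pmaip1, the BH3 protein NOXA, rose by 1.09 ± 0.19, and Bik, another BH3 protein, fell by 1.36 on the log2 scale (adjusted p = 0.0105). The rises were 1 without MFP 6 h replicate 2, 12 h replicate 1, 12 h replicate 2, 24 h replicate 2 or 48 h replicate 2 and 2 without 48 h replicate 1, and the falls were 1 without any of 6 h replicate 1, 6 h replicate 2, 12 h replicate 1, 12 h replicate 2 or 24 h replicate 2. Of 22 p53 target genes 3 rose and 4 fell (median -0.01), including Trp53inp1 (-1.25 ± 0.18) and Ckap2 (-1.86 ± 0.17). Ckap2 encodes a spindle protein as well as being a p53 target. The p53 rises were 1 without MFP 12 h replicate 1, 24 h replicate 2 or 48 h replicate 1. After quantile normalization 2 p53 targets fell and no other gene of these lists passed, and with the organ covariates none did (limma, 7 death genes and 9 p53 targets at an unadjusted p under 0.05).

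Among steroid-responsive genes, Pgr, the receptor that MFP blocks, stood at 1.16 and 0.80 at 24 h, then -0.15 and 0.40 at 48 h, against 1.0 and 0.53 at 6 h, then 1.46 and 1.40 at 12 h, a difference of -0.54 ± 0.20, adjusted p = 0.104, and was above MPA early (1.11 ± 0.25, adjusted p = 0.037). Tnfsf11, RANKL, differed by 0.47 ± 0.20, adjusted p = 0.14, and Wnt4 by -0.80 ± 0.28, adjusted p = 0.079, a difference that passed only without MFP 24 h replicate 1 (-1.14). Against 9.04% higher and 6.51% lower among all genes, 3 of 20 progestin-responsive genes rose, and 5 rose and 1 fell without MFP 24 h replicate 1. Of 25 glucocorticoid-responsive genes 5 rose and 7 fell. Ddit4, an inhibitor of mTORC1, stood at -1.96 and -2.39 at 24 h, then -2.07 and -1.81 at 48 h, against -0.22 and 0.33 at 6 h, then -0.51 and -0.87 at 12 h, a fall of -1.74 ± 0.18, adjusted p = 0.00104. Mt1, metallothionein, fell by 0.91 on the log2 scale (adjusted p = 0.0042), and Fkbp5 differed by -0.04 ± 0.18, adjusted p = 0.92. Several risers of that list are made in liver, such as Tat, a tyrosine-degrading enzyme, at 3.56 and 3.92 at 24 h, then -0.03 and -0.53 at 48 h, against 0.60 and -0.01 at 6 h, then -0.45 and -0.63 at 12 h. The rises were 3 without MFP 6 h replicate 2 or 12 h replicate 2, and 1 with the genes that follow the organ lists left out. Rises numbered 6 and falls 1 among 22 estrogen-responsive genes, with 2 falls without MFP 6 h replicate 1 or 24 h replicate 1. Igfbp4, which binds IGF1, rose by 1.76 ± 0.30 on all 6 of its probe sets, and the lysosomal protease gene Ctsd by 1.0 ± 0.20. After quantile normalization 1 progestin, 0 glucocorticoid and 1 estrogen list gene rose and 3 glucocorticoid list genes fell. With the organ covariates 0, 0 and 1 rose and 2 glucocorticoid list genes fell (limma, with 5 progestin and 5 glucocorticoid list genes higher at an unadjusted p under 0.05).

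Further lists are read against the 9.04% of all genes that rose and the 6.51% that fell. Of 32 immediate early and AP-1 genes 5 rose and 2 fell. Egr2, a growth response factor, rose by 1.21 ± 0.19, Ccn2, connective tissue growth factor, by 1.44 ± 0.23, and the phosphatase gene Dusp6, a feedback target of ERK, by 1.03 ± 0.21. Jun stood at -0.21 and -0.52 at 24 h, then -1.39 and -1.11 at 48 h, against 0.44 and 0.67 at 6 h, then 0.44 and 0.56 at 12 h, a fall of -1.33 ± 0.20, adjusted p = 0.00302. Stat3 differed by -0.10 ± 0.16, adjusted p = 0.74. Of 18 circadian clock genes Rora rose (1.38 ± 0.29, 3 of 9 probe sets) and Per3 fell (-0.87 ± 0.17), with 2 rises without MFP 24 h replicate 2 and 2 falls without 24 h replicate 1. Of 28 oxidative phosphorylation genes 3 rose, led by Cycs, cytochrome c (1.02 ± 0.14), and 1 fell without MFP 24 h replicate 1. Of 23 heat shock genes 3 rose and 1, Hspa1b, an inducible HSP70, fell (-1.15 ± 0.21), with 1 rise without MFP 12 h replicate 1 or 12 h replicate 2. Of 32 ATF4 and unfolded protein response genes 3 rose and 1 fell, with 1 rise without MFP 12 h replicate 2 or 24 h replicate 2 and 7 without 24 h replicate 1. Of 20 cholesterol synthesis genes 2 rose and 2 fell, and of 17 fatty acid genes 4 rose and 2 fell. Insig1, which restrains sterol synthesis, rose by 1.16 ± 0.24, and Scd2, a stearoyl desaturase gene, fell by 1.04 on the log2 scale (adjusted p = 0.00614). The cholesterol rises were 1 without any array but MFP 24 h replicate 1 or 48 h replicate 2, and the falls 0 without 6 h replicate 2, 12 h replicate 1, 24 h replicate 2 or 48 h replicate 1 and 1 without 6 h replicate 1, 24 h replicate 1 or 48 h replicate 2, and the fatty acid list had 2 rises without 6 h replicate 2 or 12 h replicate 2. After quantile normalization 2 genes of these lists passed, both of oxidative phosphorylation, and with the organ covariates 5 of AP-1 and 2 of heat shock did, all higher (limma, at most 7 in 1 direction of a list at an unadjusted p under 0.05 in either setting).

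Transcripts of other organs varied by array and by time, and did not follow late and early alone. The liver list median was 3.29 and 3.80 at 24 h, then -0.23 and -0.42 at 48 h, against 0.81 and -0.54 at 6 h, then -0.80 and -0.84 at 12 h. Both 24 h arrays were high, and 56 of 76 liver genes were called higher and 1 lower (9.04% and 6.51% of all genes). At 24 h 62 were higher (3.62% of all genes), and at 48 h 2 were higher and 4 lower (7.88% and 5.82%). Gnmt, a liver methyltransferase, stood at 3.65 and 4.12 at 24 h, then -0.24 and 0.02 at 48 h, against 1.37 and 0.05 at 6 h, then -1.02 and -0.86 at 12 h, and Ugt2b1, a liver glucuronosyltransferase, at 3.45 and 4.57 at 24 h, then -1.22 and -1.58 at 48 h, against -0.09 and -2.34 at 6 h, then -2.79 and -2.76 at 12 h. The 48 h arrays of both lay among the early ones. Only 3 of 76 liver genes had late arrays wholly above early ones (8.12% of all genes), among them Apoc2, an apolipoprotein that macrophages also make, at 1.71 and 2.15 at 24 h, then 1.67 and 1.37 at 48 h, against 0.0 and -0.30 at 6 h, then -0.11 and -0.01 at 12 h. Cyp2f2, an airway and liver cytochrome P450 gene, was the fall (-2.32 ± 0.31). Without MFP 6 h replicate 2, 12 h replicate 1, 12 h replicate 2, 24 h replicate 2 or 48 h replicate 1, 29, 30, 27, 28 and 31 liver genes were called higher in turn. With only late and early means or after quantile normalization 2 were.

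The pancreas median was 0.49 and 5.41 at 24 h, then 3.40 and 4.11 at 48 h, against 4.80 and 3.06 at 6 h, then 0.14 and 0.45 at 12 h. It was high in both 6 h arrays, both 48 h arrays and MFP 24 h replicate 2. Counts here are read against the 9.04% of all genes that rose and the 6.51% that fell. Of 39 pancreas genes 1 rose, with 28 without MFP 24 h replicate 1. That rise was Gnmt, which is on the liver list as well. The muscle median reached 1.58 in MFP 48 h replicate 1, where no other MFP array exceeded 0.28, and 2 of 54 genes rose, with 26 without MFP 48 h replicate 2. One of the 2 was Ankrd1, a stress-responsive muscle repeat protein that other cells also make (1.12 ± 0.17). In all, 59 of the 2830 called genes belong to these lists. The values of 521 genes follow one of the 3 medians (correlation above 0.8), and 249 of them were called, all higher. Since only positive correlations counted and each median averaged higher late, the rule could hardly pick a gene that fell. With the 521 left out 2576 passed, 1394 higher and 1182 lower, against 1645 and 1185. Of lists for further tissues, none of 11 kidney, 11 islet or 8 erythroid genes passed in limma, with 0, 1 and 0 at an unadjusted p under 0.05. The erythroid median differed by 1.15. Without MFP 24 h replicate 1, 5 erythroid and 2 islet genes rose, 1 islet gene rose without 6 h replicate 1 and 1 kidney gene without 48 h replicate 2. Rises and falls were 2 and 0 of 14 adipocyte genes and 1 and 1 of 22 epidermis genes (9.04% and 6.51% of all genes). They were 2 and 1 of 14 intestine list genes, which include Pmel, a pigment cell gene matched to the written symbol Si. The adipocyte rises were 0 without MFP 6 h replicate 1, 6 h replicate 2, 12 h replicate 2, 24 h replicate 2 or 48 h replicate 1, 1 without 24 h replicate 1 and 5 without 48 h replicate 2, and the intestine rises 5 without 24 h replicate 1. The epidermis rise was lost without MFP 6 h replicate 2 or 12 h replicate 1, and its fall without 6 h replicate 2, 12 h replicate 2, 24 h replicate 2 or 48 h replicate 1.

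**Figure D5:**
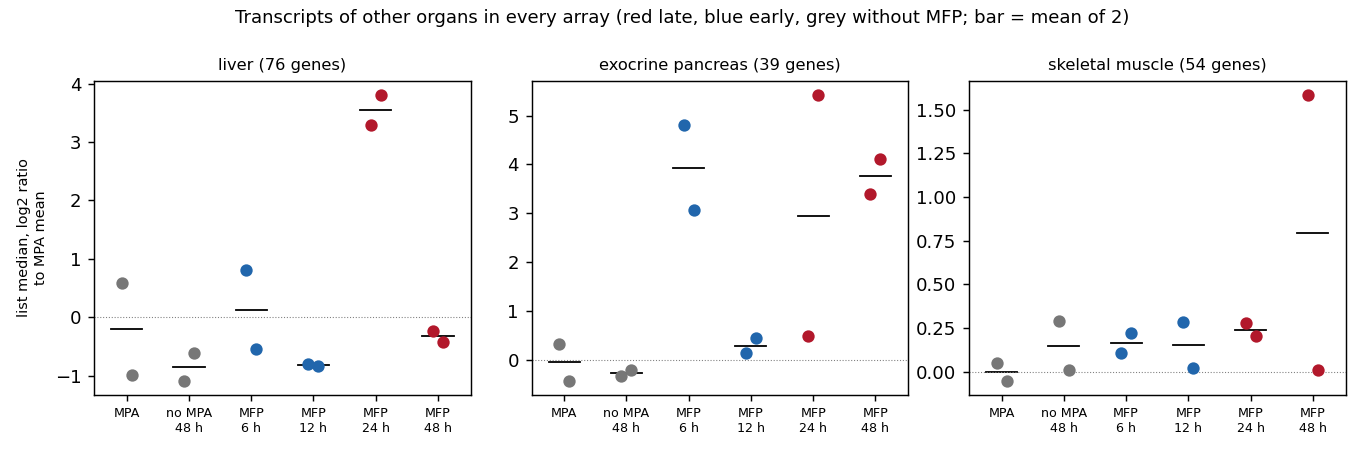
Median of the liver, exocrine pancreas and skeletal muscle lists in each array (y axis, log2 ratio to the MPA mean) by group (x axis), 2 arrays per group, bar at their mean. Liver transcripts are high in the 24 h arrays, at 3.29 and 3.80, while pancreas transcripts are high at both late and early times.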

How the data were processed

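The authors deposited log2 values of 45101 probe sets in 12 columns, made with GCRMA per the submitters' processing notes, which give no version. In 45099 probe sets the MPA arrays, made linear, average 1 to within 0.0001. Each value is thus a ratio to MPA, which keeps differences between arrays but loses the level above background. Groups came from the source names. The platform annotation gives 1 symbol for 34945 probe sets, several for 932 and none for 9160 here, besides 64 controls. A gene was read from its probe set of largest SD across the 12 arrays, which favours larger changes, and 9010 of 18193 genes have more than 1.

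Tests used limma 3.58.1 in R 4.3.3: a mean for each of 6 groups over 12 arrays, the mean of 24 h and 48 h minus that of 6 h and 12 h, eBayes (residual degrees of freedom 6, prior 4.21), with Benjamini-Hochberg adjustment at 0.05. Alternatives covered the model, the probe set, scaling, organ transcripts, single times and arrays left out. Replicate numbers follow deposit order. The labels give no batch. Simulated data with 18193 genes, 200 of them changed, drawn 10 times, were used to test the comparison. It recovered 3.4% of changes of 0.5 log2 units, 63.8% of 1 and 97.8% of 2, with 5.09% false calls. The simulated noise was independent between genes and arrays, and each change was equal in all late arrays. Organ transcripts here vary together, so the share of false calls in the real data cannot be read from it. The comparison and the 45 gene lists (1263 members, 98 not analysed here) were chosen with earlier results of these data known. Named genes are the 12 largest rises and falls with no overlap, up to 4 members per list and direction by p (the smallest p where none passed), the 4 largest organ list rises, and a fixed set (Pgr, Esr1, Tnfsf11, Wnt4, Ccnd1, Myc, Mki67, Cdkn1a, Fkbp5, Krt8, Stat3, Col1a1 and Cd68), part of which is printed. Krt18, Cdh1, Cldn3 and Cldn7 were named to check the label, and Kif23, Birc5, Nek2, Mad2l1, Grhl2, Ehf, Adm and Car9 after their values were seen.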

Additional observations from a re-analysis of the deposited data

Results flagged for a closer look

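Among 376 sets of 4 arrays, late or early, for the genes and list medians given, 18 had 1 array far from the other 3 by Dixon's test, and chance gives about 1 in 20. All values are log2 ratios to the MPA mean. In MFP 48 h replicate 1 the muscle median stood at 1.58, Cldn7 at -1.17 and Kif23 at -0.31, where the other late arrays of Kif23 ran between -3.14 and -2.80. In MFP 48 h replicate 2 Epgn stood at 3.92 and Shmt2 at -1.21. In MFP 24 h replicate 1 Esr1 stood at -1.35, Erbb3 at 0.12, Erbb2 at 0.0921 and Lbp at 1.52, where the other late arrays of Erbb2 ran between -0.56 and -0.55.

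Of the early arrays, MFP 12 h replicate 2 stood apart on the cholesterol synthesis median at -1.25 and the neutrophil median at 0.32. MFP 12 h replicate 1 stood apart for Gar1 at -1.21 and Npc1 at 0.23. MFP 6 h replicate 1 stood apart on the fibroblast and collagen matrix median at -0.78, the glucocorticoid-responsive median at -0.0645, the kidney median at -0.0443 and Ugt2b1 at -0.0943, where the other early arrays of Ugt2b1 ran between -2.79 and -2.34. MFP 6 h replicate 2 stood apart for Adgre1 at -0.73.

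Late tumours were not alike at both times for 13 of the 143 genes given (limma, Benjamini-Hochberg over all genes, 2 arrays each, where 2.35% of all genes passed). Higher at 48 h than at 24 h were Ccl6 by 3.23, Ccl9 by 1.99, Itgam by 1.82, Mmp8 by 1.77, Plin2 by 1.24 and Prim1 by 1.20. Lower at 48 h were Igf1 (-2.19), Insig1 (-1.64), Gabarapl1 (-1.09), Tat (-4.02), Gnmt (-3.99), Ugt2b1 (-5.41) and Cyp2f2 (-2.57), the last 4 of which are on the liver list or made in liver. The falls of Tat, Gnmt and Ugt2b1 lie beside liver list medians of -0.23 and -0.42 at 48 h, against 3.29 and 3.80 at 24 h. Cyp2f2 differs from them, being the liver list gene called lower late than early. The part of liver transcripts in the lower Igf1 and Insig1 was not tested.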

How the results depend on the processing

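No paired analysis was possible because the labels give no replicate numbers that the times share. Of 25 alternatives, leaving out 1 array gave 1734 to 3161 calls, 1040 to 1890 rises and 694 to 1271 falls, against 2830, 1645 and 1185. Calls, rises and falls were 1555, 850 and 705 with 2 means over the 8 MFP arrays, 287, 122 and 165 after quantile normalization, 380, 302 and 78 with organ medians as covariates, 1060, 658 and 402 for 24 h against early, and 1305, 786 and 519 for late against 12 h. Quantile normalization and the covariates were run on the same genes and arrays. The covariates leave fewer residual degrees of freedom, and the liver median among them was highest in the 24 h arrays, which are part of the late side. Quantile normalization gives the MPA columns, which are ratios to their own mean, the spread of the others. What part these have in the lower counts was not tested. The other settings kept the total within 1.5 times, among them 2991 for the mean of probe sets, 2924 with array weights and 2763 with array medians centred. The 3' to 5' difference passed for Gapdh (0.30) and not for Actb. Of the 143 genes given 126 were called. Over all settings these kept direction and call 2812 times of 3137, lost the call 323 times, 84 of them after quantile normalization and 82 with covariates, and changed sign 2 times, Tat at -0.16 for 48 h and Ugt2b1 at -0.54 with covariates. Among uncalled genes the sign changed with covariates for Krt8 (0.0611), Cdh1 (0.13), Cldn7 (0.89), Myc (-0.0179) and Stat3 (0.25), at 24 h for Krt8 (0.10), Cdh1 (0.0866), Cldn7 (0.12), Cdkn1a (-0.14) and Fkbp5 (0.14), against 6 h for Krt8 (0.0725), Cdh1 (0.16) and Cldn7 (0.17), against 12 h for Fkbp5 (0.10), and after quantile normalization for Cldn7 (0.0463), Cdkn1a (-0.0488) and Fkbp5 (0.12). Fkbp5 also changed sign with the mean of probe sets (0.0216) and centred medians (0.0184). Without 1 array Fkbp5 stood between -0.17 and 0.0901 and Cldn7 between -0.29 and 0.13. Signal over background cannot be read from ratios, so dim genes could not be left out.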
